A study of Mus musculus with 1829 samples.

Results

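Cells sorted as tetramer-stained CD4+ T cells from lymph node and from spleen were loaded side by side on each of 8 PCR chips of 96 wells by 96 assays. Tests compare the tissues within a chip, whereas counts in wells with 20 or more assays are pooled over these 8 chips. These are the chips of the sorts lettered A or B, taken with tetramers 12-20 and 13-21 at 6 and 12 weeks of age, so that each combination of tetramer, letter and age was 1 chip. Wells were assigned to a tissue by LN or S in the cell name, which gave 649 wells (345 of lymph node and 304 of spleen) of the 1829 cells of the series. All cells came from NOD/ShiLtJ mice, an inbred strain in which autoimmune diabetes arises spontaneously, with no treatment named. The cells had been stained with PE-labelled tetramers of the NOD class II molecule IAg7 loaded with an insulin B chain peptide (tetramer 12-20 or 13-21, after its residues), and sorted singly into wells. Lymph node wells numbered 85 (12-20, 6 weeks), 88 (12-20, 12 weeks), 85 (13-21, 6 weeks) and 87 (13-21, 12 weeks), and spleen wells 87, 87, 87 and 43 in the same order. The labels do not say which lymph node was taken, nor whether a letter is 1 animal, a pool or a sorting day, so p-values measure only the spread between chips. The transcripts that mark such cells were not detected in most wells: Cd4 was detected in 21 of 345 lymph node and 21 of 304 spleen wells and Cd3e in 19 and 10. The wells are therefore called here by their tissue. One further chip, of the 8-week 12-20 animal M3, held 21 wells of each tissue and is set beside the others.

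Spleen and lymph node are the secondary lymphoid organs in which T cells meet antigen. Spleen filters blood and holds a red pulp rich in macrophages and granulocytes, whereas a lymph node drains tissue and is entered from blood through specialised venules, with the receptor Ccr7 guiding naive and central memory T cells. In NOD mice the islet antigen insulin is a main target of CD4+ T cells, and tetramers of IAg7 are used to find the rare cells that recognise it. A T cell is known by the complex of its antigen receptor, of which Cd3e is a part, by the signalling kinase Zap70, and by the co-stimulatory receptor Cd28, whose ligands Cd80 and Cd86 sit on antigen-presenting cells. Cd4 marks helper T cells, but some macrophages and dendritic cells also carry it.

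A transcript was counted as detected where its call was a pass and its Ct, the cycle at which the signal crossed the threshold, was under 24. Its level, log2Ex, is 24 minus Ct, and 0 where it was not detected, so 1 unit is 1 cycle. Levels are compared between wells for 1 assay, never between assays.

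Most wells of either tissue held few transcripts. The median number of assays detected per well was 10 of 96 in lymph node and 10 in spleen. The mean per chip and tissue ran from 9.07 to 13.6 in lymph node (11.1 ± 1.88, SD, n = 8 chips) and from 9.35 to 19.4 in spleen (11.6 ± 3.45), so the tissues overlapped. Spleen was higher on 6 of 8 chips, with a mean difference, lymph node minus spleen, of -0.484, and the exact two-sided sign-flip permutation test over the 8 pairs gave p = 0.742 (adjusted over 10 such tests, 0.742). Without the 13-21B chip at 12 weeks, whose spleen wells had the highest mean, lymph node was the higher by 0.519 assays (exact permutation p = 0.594). At 6 weeks both 13-21 chips had more assays in lymph node, by 3.86 and 4.21 per well, and at 12 weeks both had more in spleen, with differences of -1.97 and -7.5. On the 4 chips of 12-20 cells the differences lay between -1.33 and -0.159.

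A small set of wells held 20 or more assays. There were 18 such wells in lymph node, 5.22% of 345 (3.12 to 8.12%, exact Clopper-Pearson 95% interval), and 17 in spleen, 5.59% of 304 (3.29 to 8.80%). Intervals cover counting error only. In lymph node they had a median of 47 assays (22 to 57), and in spleen of 36 (20 to 43). All 18 lymph node wells were 13-21 cells, 12 of them at 6 weeks and 6 at 12 weeks. No 12-20 lymph node well reached 20 assays (0%, 0 to 2.11%), and 5 spleen wells did (2.87%). The other 12 spleen wells were 13-21 cells at 12 weeks, 8 of them on the 13-21B chip. The share of such wells averaged 5.26% ± 6.26 in lymph node and 9.0% ± 15.2 in spleen (SD, n = 8 chips; exact permutation p = 0.625, adjusted p = 0.738). Only the 13-21A and 13-21B chips at 12 weeks had such wells of both tissues. Counts pooled over such wells are therefore not paired by chip, and they mix tissue with tetramer and age.

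**Figure D1:**
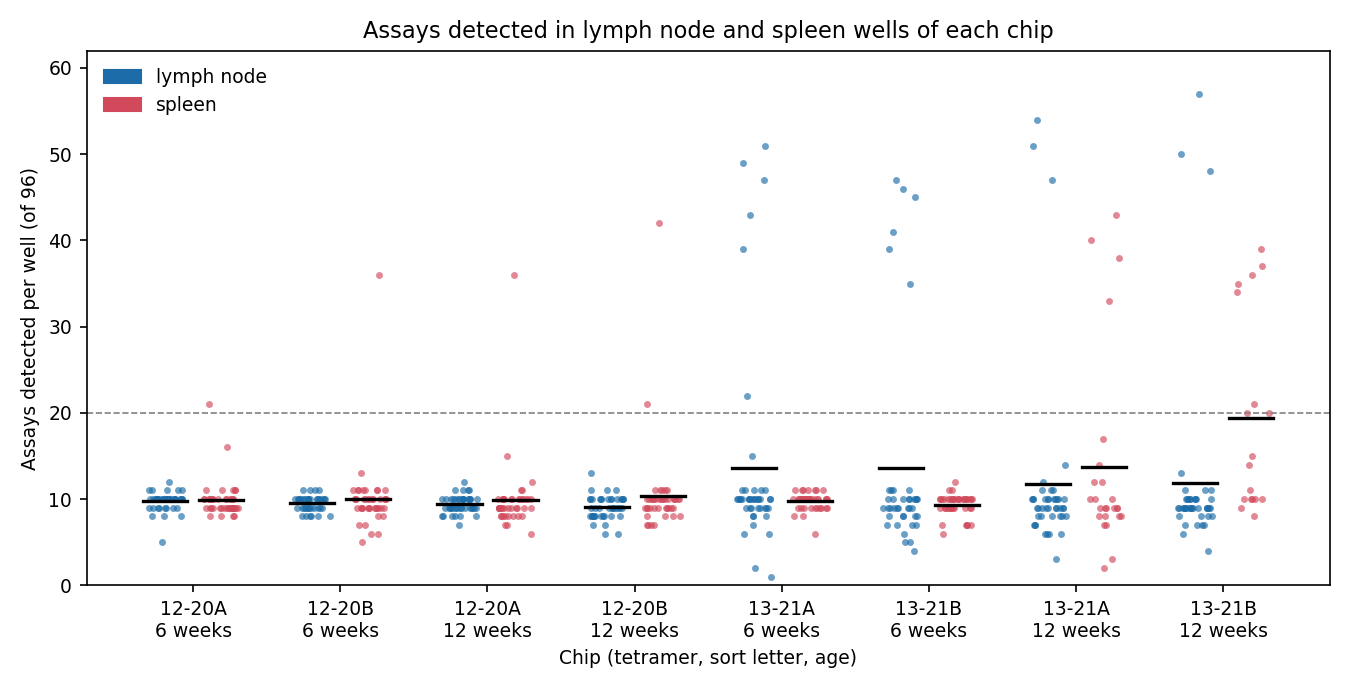
Assays detected in each well (vertical axis, of 96) on the 8 chips, with lymph node wells in blue, spleen wells in red, black bars at the mean of each tissue and a dashed line at 20 assays. Most wells lie near 10 assays; the wells above 20 are lymph node wells on the 13-21 chips at 6 weeks, wells of both tissues on the 13-21 chips at 12 weeks, and 5 spleen wells on the 12-20 chips.

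Most wells with the transcripts that define a CD4+ T cell were among these. Cd4 was detected in 18 of 18 lymph node and 16 of 17 spleen wells with 20 or more assays, but in 3 of 327 lymph node and 5 of 287 spleen wells below that number. Cd3e was detected in 17 of 18 and 6 of 17 wells with 20 or more assays, and in 2 of 327 and 4 of 287 with fewer, so that 4 of its 10 spleen wells lay below that number. The transcripts seen most often were found on both sides of 20 assays. Gapdh, a glycolytic enzyme used as a reference, was detected in all 649 wells, at a median log2Ex of 13.6 in lymph node wells on both sides of 20 assays and of 13.7 and 13.5 in spleen wells above and below it. Ifit3 and Isg15, which are induced by interferon, were detected in 97.2% and 94.5% of lymph node wells with fewer than 20 assays and in 94.4% and 88.9% of those with more. In spleen their shares were 96.5% and 96.2% below 20 assays and lower above it, at 82.4% and 76.5%. Cxcl10, Ifi44, Il25, Ccr2, Ccr6, Gsk3a and Bcl2 were likewise found in 63.3% or more of the wells of either tissue with fewer than 20 assays. All of these but Gsk3a were found in a smaller share of spleen wells above that number. Gsk3a, a kinase, did differ in level, with a median log2Ex of 5.09 below and 9.88 above 20 assays in lymph node. The median melting temperature of the Gapdh product was 84.1 °C in lymph node wells above and 83.9 °C in those below. Whether these 10 products come from the sorted cell was not tested, and the mean over all wells of a chip holds mostly wells of this kind.

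In wells with 20 or more assays, 3 of 4 T cell transcripts were found in a larger share of lymph node than of spleen wells by over 59 percentage points. Cd28 was detected in 18 of 18 lymph node wells and in 6 of 17 spleen wells, 100% (81.5 to 100%) against 35.3% (14.2 to 61.7%), a difference of 64.7 points, or 33.3 points (15 of 15 against 6 of 9) without the 13-21B chip at 12 weeks. Cd3e was detected in 17 of 18 and 6 of 17, and Zap70 in 14 of 18 and 3 of 17. Cd4 alone of the 4 was found in nearly every well of both tissues, with a median log2Ex of 11.99 in lymph node and 8.59 in spleen. Summed over Cd4, Cd3e, Zap70 and Cd28, log2Ex had a median of 42 in lymph node wells (22.7 to 53.8) and of 8.80 in spleen wells (0 to 46.1). Cd8a, which marks cytotoxic T cells, was detected in 0 of 649 wells. The panel held no B cell, NK cell, gamma-delta T cell or erythroid markers from the lists used.

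Over all assays the lymph node wells had the higher detection. Of 78 assays detected in these 35 wells, 61 had the higher share in lymph node, 16 in spleen and 1 was equal, with a median difference of 16.7 percentage points, and the greater number of assays per lymph node well (median 47 against 36) moves with every such count. The 4 T cell transcripts had a median of 59.6 points, although Cd4 among them differed by only 5.88 points, below the median of all assays. Both panel genes from the list named lymph node homing and egress were higher in lymph node. Ccr7 was found in 9 of 18 wells against 3 of 17. Il7r, through which IL-7 keeps T cells alive, was found in 9 of 18 against 1 of 17. Without the 13-21B chip at 12 weeks the difference in Ccr7 fell from 32.4 to 6.67 points (6 of 15 against 3 of 9), and on 13-21A at 12 weeks it was in 0 of 3 lymph node and 2 of 4 spleen wells. S1pr1, Klf2 and Cxcr5, which also govern where T cells reside, had no assay.

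**Figure D2:**
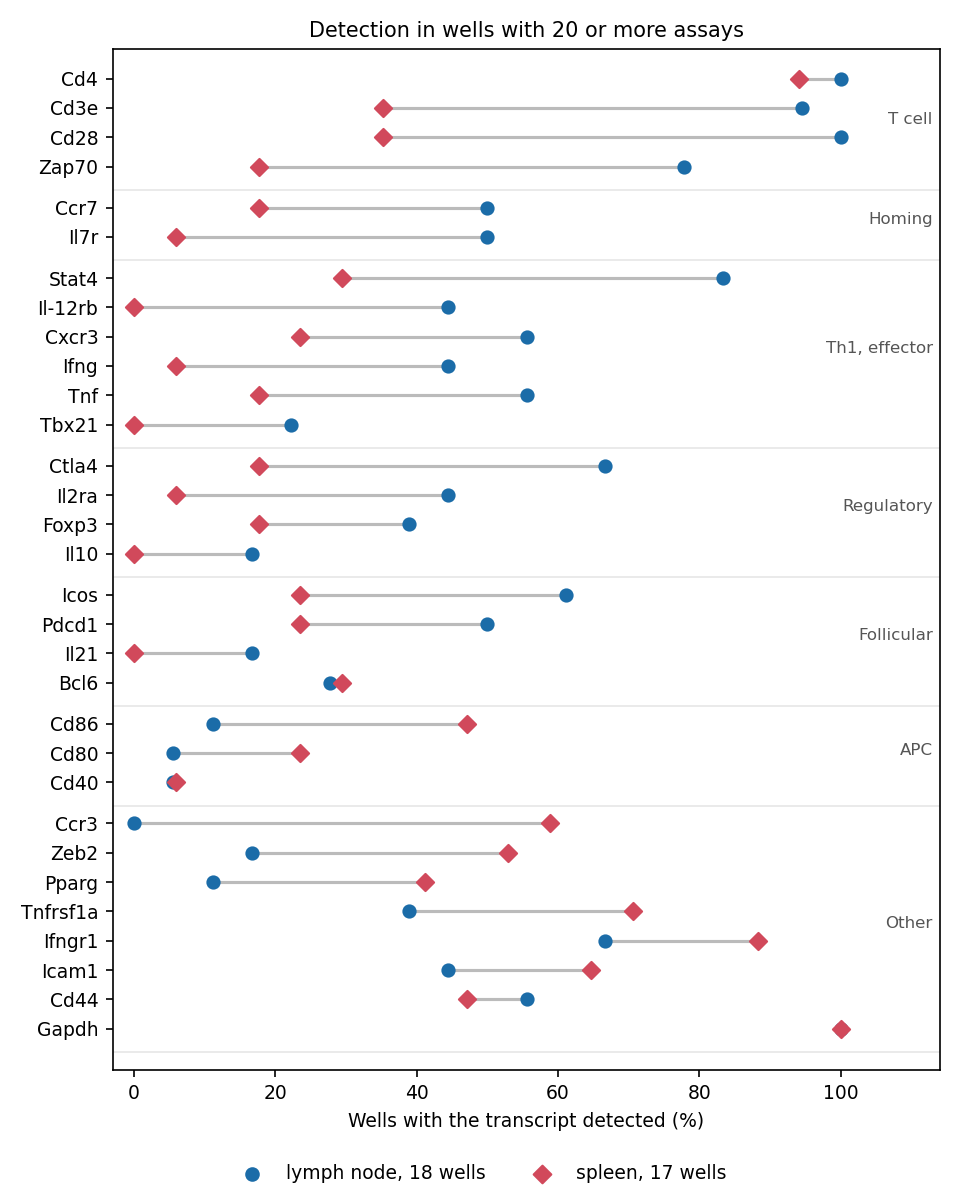
Percent of wells with 20 or more assays in which each transcript was detected (horizontal axis), for 18 lymph node wells (blue circles) and 17 spleen wells (red diamonds), grouped by gene list. Cd3e, Cd28 and Zap70 lie far to the right in lymph node, whereas Ccr3, Cd86, Zeb2 and Pparg lie to the right in spleen.

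Effector and regulatory genes also lay mostly on the lymph node side, as did 61 of all 78 assays (median 16.7 points). All 9 Th1 and effector genes detected had the higher share in lymph node (median difference 32 points; Il2 was detected in no such well). Stat4, the signal transducer of IL-12, was found in 15 of 18 against 5 of 17 wells, the assay named Il-12rb in 8 against 0, and the cytokine gene Ifng in 8 against 1. Tnf was found in 10 against 3, the chemokine receptor Cxcr3 in 10 against 4, and Tbx21, the master regulator of Th1 cells, in 4 against 0. All 4 regulatory genes were higher in lymph node (median 29.9 points): the inhibitory receptor Ctla4 in 12 of 18 against 3 of 17, Il2ra, the IL-2 receptor alpha chain, in 8 against 1, Foxp3, the regulatory T cell factor, in 7 against 3, and Il10 in 3 against 0. Of the 4 follicular helper genes, Icos (11 against 4), Pdcd1 (9 against 4) and Il21 (3 against 0) had the higher share in lymph node. Bcl6, the transcription factor of that programme, was found in 5 wells of each tissue.

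The 6 activation and memory genes all lay on the lymph node side, with a median of 29.7 points, beside 61 of all 78 assays and 16.7 points. Il2ra, Icos and Cd28, given above, differed most among them. Cd44, an adhesion receptor raised on antigen-experienced T cells, was found in 10 of 18 lymph node and 8 of 17 spleen wells, and Nr4a1, an early gene of receptor signalling, in 10 and 7. Of the 14 interferon response genes detected, 10 were on that side, with a median of 9.15 points, below that of all assays. Ifngr1, a chain of the interferon gamma receptor, went the other way, with 12 of 18 wells in lymph node and 15 of 17 in spleen. Of 8 chemokine receptors detected, 7 were higher in lymph node and Ccr3 was not. Their median of 17.2 points was close to the 16.7 of all assays. Without the 13-21B chip at 12 weeks 5 were higher in lymph node and 3 in spleen. Their median was then 5.56 points, below the 8.89 of all assays.

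Spleen was set apart by Ccr3, the receptor for eotaxins, known from eosinophils and from some Th2 cells. Ccr3 was detected in 0 of 345 lymph node wells, 0% (0 to 1.06%), and in 17 of 304 spleen wells, 5.59% (3.29 to 8.80%). The spleen wells came from 5 of the 8 chips: 9 of 18 on 13-21B at 12 weeks, 5 of 25 on 13-21A at 12 weeks, and 1 each on 12-20A at 6 weeks, 12-20B at 6 weeks and 12-20B at 12 weeks. Where present it had a median log2Ex of 10.1 (7.56 to 13.1), and its product melted at 80.1 to 80.4 °C in all 17 wells. Rsad2, an antiviral gene induced by interferon, was the only other assay seen in spleen alone (5 wells; chosen after its values were seen). Tbx21 (6 wells), Il21 (3), Il7 (2), Il4 (1) and Gata4 (1) were seen in lymph node alone.

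Many Ccr3 wells had Cd4 and Cd86, and none had Cd3e, Cd28 or Zap70. Of the 17 wells, 14 had Cd86, 4 Cd80 and 1 Cd40. Cd4 was found in 12, Fyn in 11 and Cd44 in 5. There were 12 with Tnfrsf1a, a receptor for tumour necrosis factor, and 13 with Ifngr1. Zeb2, a transcription factor of several myeloid lineages and of effector lymphocytes, was found in 10 and Pparg, a nuclear receptor of lipid metabolism, in 10 (Zeb2, Pparg and Tnfrsf1a were chosen after their values were seen). Ctla4, Foxp3, Ccr7 and Il7r were likewise each detected in 0 of 17. They were rare in the other 287 spleen wells too, with Ctla4, Foxp3 and Ccr7 in 3 each and Il7r in 2. Cd3e, Cd28 and Zap70 were found there in 10, 8 and 3, so a count of 0 in 17 wells lies near these shares. In the other 287 spleen wells Cd86 was found in 1, Zeb2 in 1 and Pparg in 0, with Cd80 in 1 and Cd40 in 7. Conversely, of the 10 spleen wells with Cd3e, 6 had Cd4, 6 Cd28 and 3 Zap70, and none had Ccr3, Cd86, Zeb2 or Pparg. Over all 304 spleen wells Ccr3, Cd86, Zeb2 and Pparg were found in 17, 15, 11 and 10, so 0 of 10 is also near their shares. The Ccr3 wells held 8 to 39 assays, 10 of them 20 or more.

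**Figure D3:**
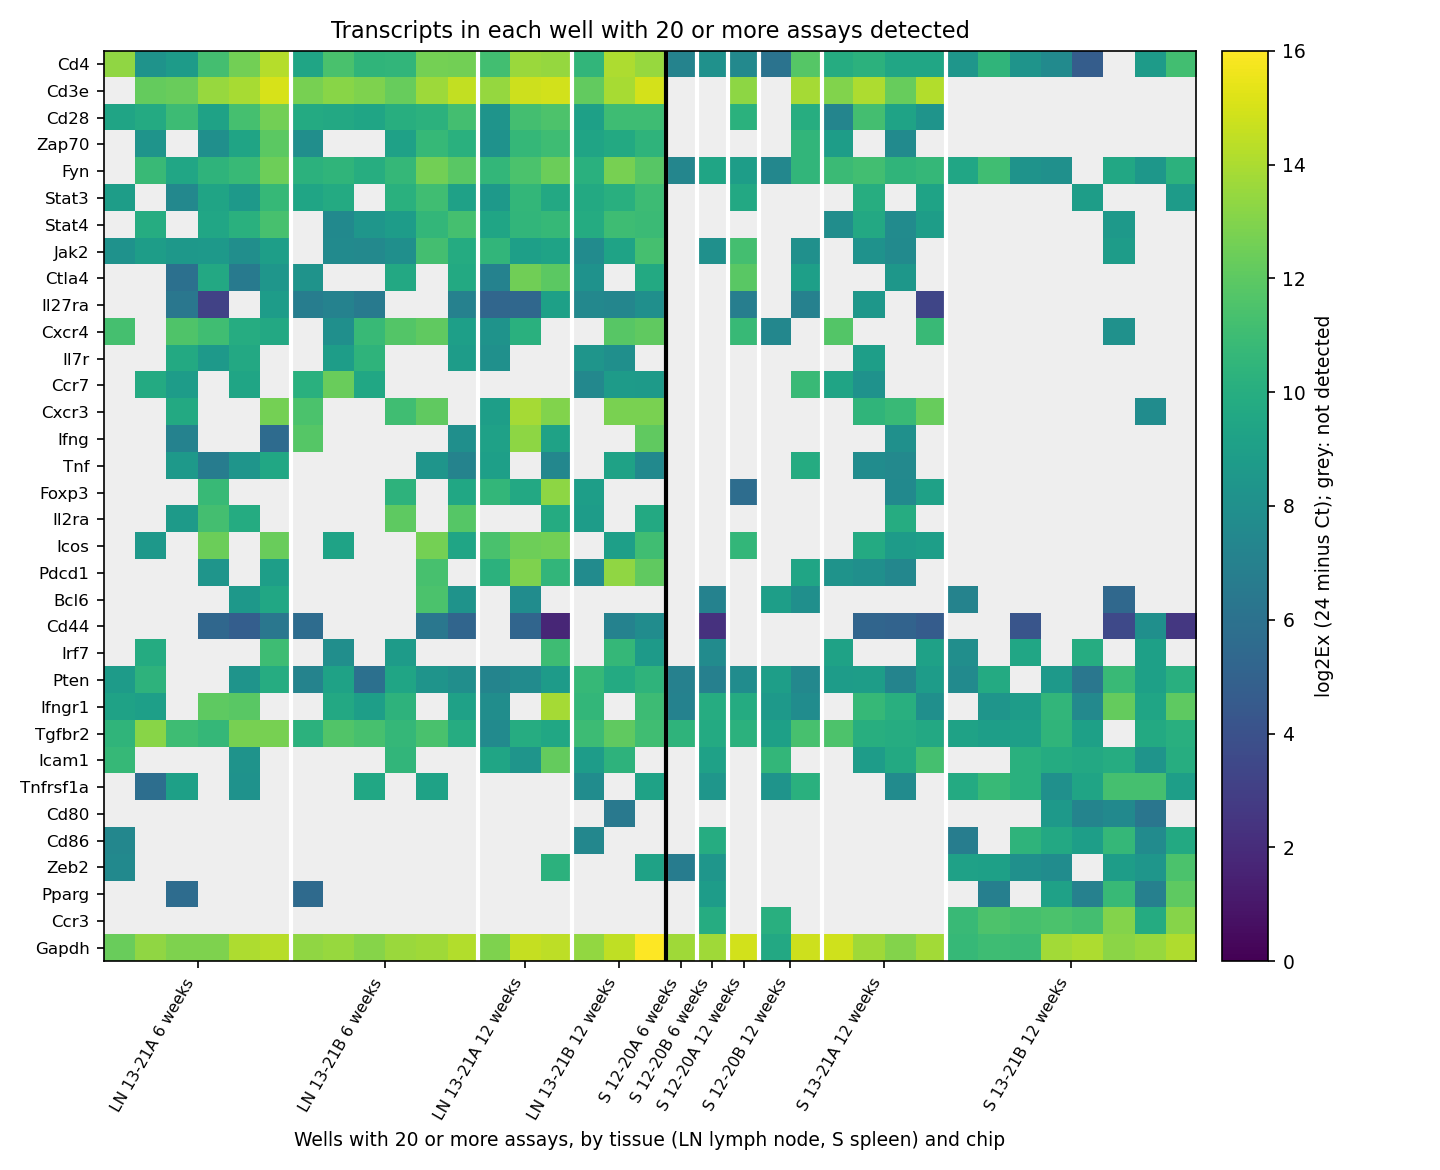
Level (log2Ex, colour; grey where not detected) of 34 transcripts in each of the 35 wells with 20 or more assays, one column a well, lymph node wells left of the black line and spleen wells right of it, grouped by chip. The 8 spleen wells of the 13-21B chip at 12 weeks carry Ccr3 and lack Cd3e and Cd28, whereas the 4 of the 13-21A chip carry Cd3e and Cd28 and lack Ccr3.

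Both kinds of well carried Cd4, at levels that overlapped. Its median log2Ex was 8.20 in the 12 Ccr3 wells that had it (4.69 to 11.1), 9.69 in the 6 spleen wells with Cd3e (7.52 to 11.8) and 11.4 in 17 lymph node wells with Cd3e (8.23 to 14.2). The Cd4 product melted at a median of 81.7 °C in the Ccr3 wells and 81.9 °C in the spleen wells with Cd3e. Gapdh was lower in the Ccr3 wells, with a median of 10.7 (7.5 to 14.1) against 13.7 (13.1 to 14.9) in the spleen wells with Cd3e. Of the 17 spleen wells with 20 or more assays, 10 had Ccr3 alone of the pair, 6 had Cd3e alone, 1 had neither and 0 had both; in lymph node 17 had Cd3e, 1 had neither and 0 had Ccr3. The summed log2Ex of Cd86, Cd80 and Cd40, the antigen-presenting cell markers on the panel, had a median of 6.75 in spleen (0 to 18.3) and 0 in lymph node (0 to 7.76). By chip and tissue it averaged 0 to 6.42 in spleen and 0 to 0.95 in lymph node. The part of other cells in the tissue difference was not tested.

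These counts varied between chips. Within the 13-21 chips at 12 weeks, the 6 lymph node wells with 20 or more assays all had Cd3e, Cd28, Zap70 and Cd4, and none had Ccr3. Of the 12 spleen wells there, the 4 on 13-21A all had Cd3e and no Ccr3, and the 8 on 13-21B all had Ccr3 and no Cd3e. On 13-21A, Cd28 and Stat4 were found in all such wells of both tissues (3 of 3 and 4 of 4), and Zap70 in 3 of 3 and 2 of 4. The 5 spleen wells with Ccr3 on 13-21A each had fewer than 20 assays. Without the 13-21B chip at 12 weeks, Cd3e was found in 14 of 15 lymph node and 6 of 9 spleen wells, a difference of 26.7 points in place of 59.2, and Ccr3 in 0 of 15 and 2 of 9. Over all assays 53 of 75 then had the higher share in lymph node, 17 in spleen and 5 were equal, with a median of 8.89 points in place of 16.7 (a summary chosen after seeing the data). The median of the T cell transcripts was 30 points, of the regulatory genes 24.4, of the Th1 and effector genes 20 and of the follicular helper genes 6.67. Pdcd1 turned to the spleen side (6 of 15 against 4 of 9), and Foxp3 differed by 6.67 points. Cd86 was then found in 1 of 15 and 1 of 9 wells, and Pparg in 2 of 15 and 1 of 9, so that chip held most of the spleen wells with them. The pass call decided which wells were compared: with fail calls under Ct 24 also counted as detected, 287 lymph node and 275 spleen wells reached 20 assays, with Cd3e in 19 and 10 and Ccr3 in 0 and 11. Stat3, which transmits IL-6 and related cytokines, was found in 13 of 15 against 3 of 9, and Jak2, a kinase of cytokine receptors, in 14 of 15 against 5 of 9 (Jak2 chosen after its values were seen).

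Among wells with Cd3e, more lymph node than spleen wells held other genes of the T cell panel. Of 19 lymph node and 10 spleen wells with Cd3e, Cd28 was found in 17 and 6, Stat4 in 15 and 4, Ctla4 in 12 and 3, Il7r in 9 and 1, Ccr7 in 9 and 3 and Foxp3 in 7 and 3. These lymph node wells had a median of 47 assays (9 to 57) and the spleen wells of 34.5 (10 to 43). All but 2 of the lymph node wells, and 6 of the 10 spleen wells, had 20 or more assays, and tissue and the number of assays in a well cannot be told apart in these counts.

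Animal M3, a 12-20 sort at 8 weeks on a chip of its own, gave the same split of Ccr3 by tissue. Ccr3 was detected in 0 of 21 lymph node wells (0%, 0 to 16.1%) and in 5 of 21 spleen wells. Of these 5 wells 4 had Cd86, 5 Zeb2 and 4 Pparg, whereas 2 had Cd4 and 1 each had Cd3e, Zap70, Ccr7 and Foxp3. Spleen wells with Cd3e were less separate than on the 8 chips. Of 7 such wells in M3, 3 had Zeb2 and 1 each had Cd86, Pparg and Ccr3. Here 11 lymph node and 10 spleen wells had 20 or more assays, with means of 22 and 21.8 assays over all wells. In these, Cd3e was found in 10 of 11 lymph node and 7 of 10 spleen wells, Cd28 in 9 and 4, and Zap70 in 7 and 3. Ccr7 was found in 8 of 11 and 7 of 10, Foxp3 in 1 and 2, and Stat4 in 4 and 4. This is 1 animal with no replicate, so the values carry no test.

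Tests ran on the mean log2Ex over all wells of a tissue on a chip, a quantity that joins the share of wells with a transcript to its level, for the 29 assays detected in at least 5% of the wells of either tissue. Over the 8 chips limma called 0 of 29 genes at an adjusted p under 0.05 (0% of those tested), and 0 had an unadjusted p under 0.05. The largest differences are therefore descriptions. Ccr3 was 0 in all 8 lymph node means and 0 to 5.62 in spleen (median 0.21), a difference of -0.997 (SE 0.51, limma adjusted p = 0.837), with spleen higher on 5 chips and a tie at 0 on the other 3. The exact permutation test over the 8 pairs gave p = 0.0625 for Ccr3 (adjusted p = 0.352). With lymph node at 0 throughout, no difference could be positive, so the number of chips with any Ccr3 (5) alone fixed this p. Without the 13-21B chip at 12 weeks the mean difference of Ccr3 was -0.34, and Ccr3 then lay under the 5% minimum and was not tested. Ifngr1 followed at -0.73 (SE 0.47), with lymph node means of 0 to 0.96 and spleen means of 0 to 4.65, which overlapped.

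On the lymph node side the largest differences were in transcripts found in most wells. Ccr2, a receptor for monocyte chemoattractants, differed by 0.70 (SE 0.45), Isg15 by 0.67 (SE 0.38), Ifi44 by 0.52 (SE 0.42) and Ifit3 by 0.41 (SE 0.42), each with a limma adjusted p of 0.837. Isg15 was higher in lymph node on 7 of 8 chips, from 6.74 to 8.23 (median 7.71) against 5.37 to 7.58 in spleen (median 7.23), which overlapped; the exact permutation p was 0.0703 (adjusted p = 0.352). Gapdh, to which levels were not scaled, averaged 13.5 in lymph node and 13.2 in spleen. On 13-21A and 13-21B at 12 weeks it was higher in lymph node by 1.61 and 0.80, and Isg15 by 2.55 and 1.36. Gapdh was lower in lymph node on 12-20B at 12 weeks (-0.092) and on 13-21A and 13-21B at 6 weeks (-0.16 and -0.26). Cd4 differed by -0.19 (SE 0.46) and Cd3e by 0.27 (SE 0.40). Icam1, an adhesion molecule, Tgfbr2, a receptor for TGF-beta, Irf2, an interferon regulatory factor, and Fyn, a kinase of T cell receptor signalling, differed by -0.51 to -0.32. Of the 29 genes 13 were higher in lymph node and 16 in spleen, with a median of -0.11; 2 of the 3 T cell transcripts tested and 4 of the 8 interferon response genes were higher in lymph node.

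**Figure D4:**
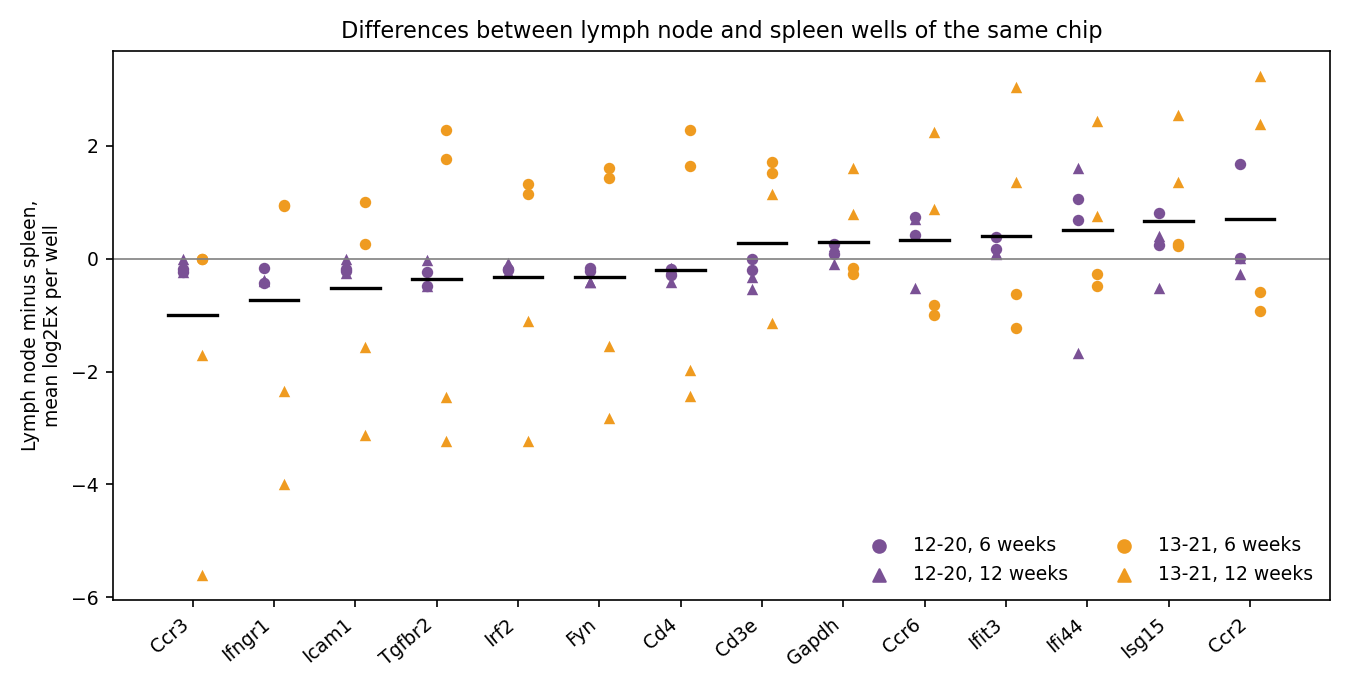
Difference in mean log2Ex per well, lymph node minus spleen of the same chip (vertical axis), for 14 genes on the 8 chips, by tetramer (colour) and age (circles 6 weeks, triangles 12 weeks), with black bars at the mean. On the 13-21 chips Tgfbr2 and Cd4 lie above 0 at 6 weeks and below 0 at 12 weeks, whereas for both genes the 12-20 chips lie close to 0.

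By tetramer, limma called 0 of 29 genes in 12-20 cells (0%; 0 at an unadjusted p under 0.05) and 0 of 29 in 13-21 cells (0%; 1 unadjusted, Ccr3 at -1.83, SE 0.70, adjusted p = 0.450). The difference between the tetramers' tissue effects was called for 0 of 29 genes (0%; 0 unadjusted). In 13-21 cells Cd3e was the higher in lymph node by 0.81 (SE 0.58, limma adjusted p = 0.869), and without the 13-21A chip at 12 weeks it was called, with 1 gene in all. Without the 13-21B chip at 6 weeks 1 gene, Ccr3, was called in 13-21 cells. Over all chips Cd3e reached the minimum share of wells for testing through lymph node alone, where it was higher (5.51% against 3.29% of spleen wells). Ccr3 reached it through spleen alone (5.59% against 0% of lymph node wells). The choice of these genes for testing thus depended on the tissue difference that was tested.

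By age, 0 of 29 genes were called at 6 weeks (0%; 0 unadjusted) and 2 of 29 at 12 weeks (6.9%; 11 unadjusted), both lower in lymph node. At 12 weeks Ccr3 differed by -1.89 (SE 0.56, limma adjusted p = 0.0196) and Ifngr1 by -1.78 (SE 0.53, adjusted p = 0.0196). Both genes passed the 5% minimum through spleen alone, where they were higher: Ccr3 was in 0% of lymph node and 5.59% of spleen wells and Ifngr1 in 3.77% and 7.89%. Without that minimum, over 83 genes, the limma adjusted p of both was 0.311. Both calls rested on the 13-21 chips: Ifngr1 differed by -2.35 and -3.99 on 13-21A and 13-21B, and by -0.40 and -0.38 on the 12-20 chips. With either 13-21 chip of 12 weeks left out no gene was called, and Ifngr1 stood at -1.59 without 13-21A and -1.05 without 13-21B. Ccr3 was then under the 5% minimum, with a mean of -1.95 and -0.65. No gene was called either without the 12-20A, the 12-20B or the 13-21A chip of 6 weeks, whereas 11 and 13 genes were called without the 12-20A and the 12-20B chip of 12 weeks. An exact sign-flip test over 4 chips cannot go below p = 0.125.

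The tissue effect differed between the ages for 4 of 29 genes (13.8%; 12 unadjusted), all lower in lymph node relative to spleen at 12 than at 6 weeks. Among them were Tgfbr2 (-2.38, SE 0.76, limma adjusted p = 0.0434), Cd4 (-2.11, SE 0.74, 0.0477) and Ifngr1 (-2.11, SE 0.75, 0.0477). For Cd4 the chip differences at 6 weeks were 2.28 and 1.64 on 13-21A and 13-21B and -0.28 and -0.19 on 12-20A and 12-20B. At 12 weeks they were -1.97, -2.43, -0.17 and -0.42 in the same order. On the 13-21 chips, wells with 20 or more assays lay in lymph node alone at 6 weeks, and more often in spleen at 12 weeks. No gene was called between ages with any 1 of 6 chips left out, namely the 4 of 6 weeks and 13-21A and 13-21B of 12 weeks (13-21B: Tgfbr2 -1.81, Cd4 -1.71 and Ifngr1 -1.37). Without 12-20A or 12-20B of 12 weeks 6 and 5 genes were called. Centring each chip and tissue on its mean over the assays, which takes out a shift shared by all genes (the median over the 29 genes was -0.51 at 12 weeks), left 0 calls at 12 weeks, with Ccr3 at -1.48 and Ifngr1 at -1.37 (limma adjusted p = 0.114 for both).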

How the data were processed

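Per the labels, single CD4+ T cells were assayed by EvaGreen PCR on 96-by-96 chips. The deposited tables give Ct, a quality score, a pass or fail call and a melting temperature for each well and assay. Per the file headers the authors exported them with software version 4.0.1, a baseline of the linear derivative kind, 1 automatic Ct threshold for each chip and a minimum quality of 0.65. The 8 chips held 768 wells, of which 649 were matched to samples by name and 119 were not used here. Of 62304 Ct values 7090 were passes under 24, and 9167 more under 24 carried a fail call. From these log2Ex was computed as 24 minus Ct, or 0, without scaling to a reference gene. Of the 96 assays 95 were matched to mouse symbols; genome positions were not used.

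Tests used, since cells are no replicates, the mean of a tissue on a chip (16 means, 8 pairs). limma 3.58.1 in R 4.3.3 was fitted with the chip as a fixed block to assays detected in at least 5% of wells of either tissue, with p-values adjusted (Benjamini-Hochberg) over all genes in the fit. The code was tested on simulated data. Pairs come from the shared chip: the median correlation within pairs, each gene centred, was 0.415 (-0.127 between other units), and 2 of 8 pairs were negative, at -0.597 and -0.609. Exact sign-flip tests used scipy 1.17.1 in Python 3.11.15. Pooled shares carry Clopper-Pearson intervals at 95%, also where the count is 0. Detection in wells with 20 or more assays is a description, without a test.

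The comparison, gene lists and alternatives were chosen with earlier results of these data known. Named are called genes, the 6 largest differences each way, the 10 assays seen most often, a list of index genes and members of the lists; others are marked. Some genes are not reported here.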

Additional observations from a re-analysis of the deposited data

Results flagged for a closer look

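On 1 of 8 chips, 13-21B at 12 weeks, the difference lay far from the other 7 in 2 of the 16 measures examined. Each measure is 1 group of 8 chip values, and chance sets apart about 1 in 20 such groups. The Ccr3 difference there was -5.62 log2Ex, and the share of wells with 20 or more assays was lower in lymph node by 37.6 percentage points (-37.6).

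The tissue difference changed between the ages, by a test of the change itself, for Cd4 (-2.11), Ifngr1 (-2.11) and Tgfbr2 (-2.38, lymph node minus spleen, 12 weeks minus 6 weeks). In assays per well the 13-21 chips went opposite ways, with lymph node higher on both 6-week chips and spleen on both 12-week chips, a change of -8.77 assays that was not tested. The part of the uneven spread of wells with 20 or more assays in these values was not tested.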

How the results depend on the processing

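Over all the chips that entered a run, 0 genes were called between the tissues under every alternative. The largest number at an unadjusted limma p under 0.05 (22 of 78) came in wells with 20 or more assays. Only the 13-21A and 13-21B chips of 12 weeks entered that run, since no other chip had such wells of both tissues. Without a filter 3 genes were called in 13-21 cells and 2 between tetramers; leaving out 1 chip gave 0 to 1 in 13-21 cells. The 2 calls at 12 weeks and the 4 between ages fell to 0 with a Ct limit of 22, with fail calls kept, with the percent of wells detected, with centring, without a filter, with the chip as a random block and with weights by wells. A filter at 10%, and wells with fewer than 20 assays, left 11 genes to test and 0 calls; Ccr3, Ifngr1, Cd4 and Tgfbr2 were not among those tested, so neither setting bears on them. Without the replicate block, that is without the pairing by chip, 0 genes were called in either. With a Ct limit of 26, 2 (Ccr3 and Ifngr1) and 4 were called, and averaging the chips of both tetramers gave 17 and 18. Leaving out 1 chip gave 0 to 13 at 12 weeks and 0 to 6 between ages.

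The difference in assays per well ran from -1.15 to 0.519 with 1 chip left out and was 16.8 within wells of 20 or more assays (2 chips). The difference in the percent of such wells ran from -6.36 to 1.10 with 1 chip left out. Pooled Cd3e detection differed by 2.98 points with fail calls kept and 20.9 in animal M3 (chosen after seeing the data), and by 26.7 to 77.9 points with 1 chip left out. Pooled Ccr3 detection differed by -4 points with fail calls kept and by -76.9 to -22.2 with 1 chip left out. Over all chips, with 1 chip left out, Cd4 ran from -0.55 to 0.13, Fyn from -0.59 to 0.042 and Tgfbr2 from -0.73 to 0.057; each was above 0 without 13-21B at 12 weeks, and Cd4 also (0.061) without 13-21A at 12 weeks. In wells with 20 or more assays Cd4, Fyn, Icam1, Irf2 and Tgfbr2 stood at 4.11, 2.06, 0.85, 1.84 and 0.90. None of these passed the threshold. The causes were not tested. Precision is limited by 35 wells with 20 or more assays, and by 2 chips with such wells of both tissues.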

Other observations

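In the 35 wells with 20 or more assays, further cytokine and signalling genes, chosen after their values were seen, differed between the tissues. Cxcr4, a chemokine receptor that retains lymphocytes in tissue, was found in 14 of 18 lymph node and 5 of 17 spleen wells. Il27ra, the receptor for IL-27, was found in 13 and 4, Socs3, an inhibitor of cytokine signalling, in 11 and 2, and Aim2, a sensor of cytosolic DNA, in 15 and 7. The antiviral gene Mx1 lay on the other side, with 1 and 4 wells, as did Cd80, with 1 and 4. Without the 13-21B chip at 12 weeks Cd80 was in no such well, and Il27ra was in 10 of 15 and 4 of 9.

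Among the remaining lists, both genes detected of the Th17 list, Ccr6 and Stat3 (median difference 38.7 points), and of the Th2 list, Il25 and Irf4 (22.9 points), had the higher share in lymph node, beside 16.7 points over all 78 assays. Il4, Il5 and Il17a were found in 0 of the 35 wells, and Il25 and Ccr6 are among the 10 products also found in most wells with fewer than 20 assays. The same held for 7 of 8 genes of the cytokine list (20.3 points) and for the 3 genes of inhibitory receptors and their ligand (26.5 points). The cytokine list took in the receptor gene Il7r (44.1 points), and Il27 (-11.8 points) was its 1 gene on the spleen side. Ifng, Tnf and Il25 lay above the 16.7 points of all assays, Il10 and Il21 at it, and Il7 (5.56 points) below it. Of the 3 reference genes Gapdh and Gsk3a differed by 0 and 0.980 points and Hprt by 24.5 points (15 of 18 against 10 of 17). These are counts over wells of few chips and carry no test.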
